A study of Mus musculus with 10 samples.

Results

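The 9 genes described here encode 8 enzymes of heme synthesis, Alas1, Alas2, Alad, Uros, Urod, Cpox, Ppox and Fech, and the transferrin receptor Tfrc. They were picked out by gene symbol from 33393 genes measured in 10 RNA-seq libraries of mouse CD34- hematopoietic stem cells (HSCs, sorted as Lin- Sca-1+ cKit+ CD34- Flt3-) from femoral bone marrow of individual mice aged 8 weeks. The 5 control libraries came from Reg1flox/flox mice, which carry the floxed Regnase-1 alleles without Cre. The other 5 came from Vav1-iCre; Reg1flox/flox mice, called Reg1Δ/Δ, in which Cre under vav promoter elements acts in blood cells, and stem cells and their progeny are therefore both exposed to it. The sample titles fall into 2 naming schemes, taken here as experiment 1 (replicates 1 to 3 of each group) and experiment 2 (replicates 4 and 5), and the groups were compared with experiment held as a covariate or within each experiment.

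Heme is built from glycine and succinyl-CoA, beginning and ending in the mitochondrion and passing through the cytosol in between. The first step is catalyzed by aminolevulinate synthase, which exists as Alas1 in most tissues and as Alas2 in developing red cells, where globin needs large amounts of heme. Iron for the last step enters erythroid precursors with transferrin, through Tfrc. When iron is scarce, iron regulatory proteins bind a small hairpin, the iron-responsive element, which protects Tfrc mRNA from decay when it lies in the 3′ untranslated region and blocks translation when it lies in the 5′ untranslated region, as in Alas2 and ferritin mRNA. Regnase-1, encoded by Zc3h12a, is an endoribonuclease that degrades target mRNAs, and Tfrc mRNA is among the targets known for it.

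The elements in the reference transcripts are shown first because Tfrc and Alas2, which carry them, moved in opposite directions in these libraries. The search required an unpaired C, a stem of 5 pairs and the loop CAGTGN, and each 28-base window below is a stretch of GENCODE M21 transcript on GRCm38, written 5′ to 3′ as DNA with the unpaired C, stem and loop in capitals. Tfrc holds 4 matches in its 3′ untranslated region on the plus strand, and the matches in Alas2 (chromosome X, plus strand), Ftl1 and Slc40a1 (both minus strand) lie in 5′ untranslated regions.
Tfrc, chr16:32631220-32631247: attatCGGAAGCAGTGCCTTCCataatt
Tfrc, chr16:32631599-32631626: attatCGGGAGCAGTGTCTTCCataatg
Tfrc, chr16:32631664-32631691: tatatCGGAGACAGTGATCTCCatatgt
Tfrc, chr16:32631711-32631738: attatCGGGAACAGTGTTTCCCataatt
Alas2, chrX from 150547459, with its last base in the next exon at 150552149: tggttCGTCCTCAGTGCAGGGCaacagg
Ftl1, chr7:45459779-45459806: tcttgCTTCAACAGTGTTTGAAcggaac
Slc40a1, chr1:45925465-45925492: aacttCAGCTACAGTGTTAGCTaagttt
Such a match was present in 1.08% of 41903 protein-coding transcripts and in 1.52% of 16889 genes. None was found in Alas1, Alad, Uros, Urod, Cpox or Ppox, and Fech was not assessed for a match. A match is a description of the letters and does not show that a regulatory protein bound there.

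Because the erythroid factor Gata1 was higher in the libraries labelled Reg1Δ/Δ, the promoters of the genes were searched on both strands for AGATAA. A promoter here ran from 250 bases before to 50 after a start (RefSeq, GRCm38.p6). AGATAA is only a form of the sites that GATA factors bind, and other forms of the site were not searched. Of the 9 genes, 8 had a promoter entry. The letters were found in Alas2 and Cpox and in 11.2% of all 32851 promoters. The matches are shown because these 2 genes moved in opposite directions, in capitals, on the strand of the gene, where AGATAA reads as its reverse complement.
Alas2, chrX:150547319-150547348, beginning 86 bases before the start: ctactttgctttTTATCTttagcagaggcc
Cpox, chr16:58670200-58670229, at base 5 after the start: cagggtgcagtcTTATCTgctctttccggg
A match says nothing about binding of the factor in these cells.

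Several properties of the libraries bear on every value below. Zc3h12a itself was read at 1.83, 1.28 and 1.60 TPM (transcript abundance normalized for transcript length and library size) in the controls of experiment 1 and at 3.54, 2.08 and 2.51 TPM in the libraries labelled Reg1Δ/Δ, and at 1.48 and 6.07 against 10.3 and 8.52 TPM in experiment 2. The deleted gene was thus read higher, not lower, in the libraries labelled Reg1Δ/Δ (limma adjusted p = 0.0314), which goes against the label as far as a gene total can, since the total does not separate the deleted exons from the rest. This call was lost in 9 of 21 alternatives, among them each experiment alone, and within each experiment the values did not overlap. The groups are therefore named by their labels, and each direction rests on these labels. One file, that of Reg1Δ/Δ replicate 5, carried the name of replicate 4 in its header. The values of these replicates differed (r = 0.983, the highest of any pair of libraries), and both were kept. Several defining markers of HSCs were far lower in the libraries labelled Reg1Δ/Δ: Procr was 19.8 to 37.3 TPM in controls against 0.108 to 1.36 TPM, and Hlf 33.9 to 176 against 0.791 to 2.72 TPM. Of 10 stem cell markers, 9 were tested and 8 of them were lower, against 37.9% of all genes tested. Of these, Fgd5 was under 1 TPM in every library labelled Reg1Δ/Δ and so passed the filter on low values only through the controls. Ly6a, the gene of Sca-1, overlapped at 68.1 to 108 TPM in controls against 50.9 to 449 TPM. Kit, also used in the sort, was lower but still at 56.1 to 116 TPM, against 106 to 367 TPM in controls. Cd34, for which the cells were sorted as negative, was read at 51.9 to 236 TPM in controls and 9.54 to 19.8 TPM in the libraries labelled Reg1Δ/Δ. The share of TPM in protein-coding transcripts was 46.2% to 49.1% in experiment 1 and 73.5% to 81.1% in experiment 2, so a level in one experiment is not directly comparable with a level in the other, and a range given over all 5 libraries of a group spans both. Genes at 1 TPM or more numbered 13366 to 14307 in controls and 11256 to 12048 in the libraries labelled Reg1Δ/Δ. These ranges did not overlap (two-sided exact permutation test within experiments, adjusted p = 0.0233), and the cause was not tested. Only TPM values were used, so the read depth behind each value is unknown and no counting interval is given.

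Of the 9 genes, all of which passed the filter on low values, 6 were higher (Alad, Uros, Urod, Cpox, Fech and Tfrc) and 1 was lower (Alas2) in the libraries labelled Reg1Δ/Δ, and Alas1 and Ppox were not called. The test was limma on log2(TPM + 1) across 12874 genes with experiment as a covariate and an adjusted p threshold of 0.05. Across all genes tested, 15.0% were higher and 37.9% lower. The same 6 genes and Alas2 did not overlap between the groups in either experiment, which held for 12.7% of all genes in the higher direction and 31.4% in the lower. The median log2 fold change was 0.95 over the 9 genes and -0.25 over all genes tested. Another scaling moved the latter, to 0.14 with quantile normalization and 0.05 with median-of-ratios scaling, and moved the share of calls that were higher from 28.4% to 59.4% and 53.7%. Neither scaling removed one of the 7 calls.

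**Figure D1:**
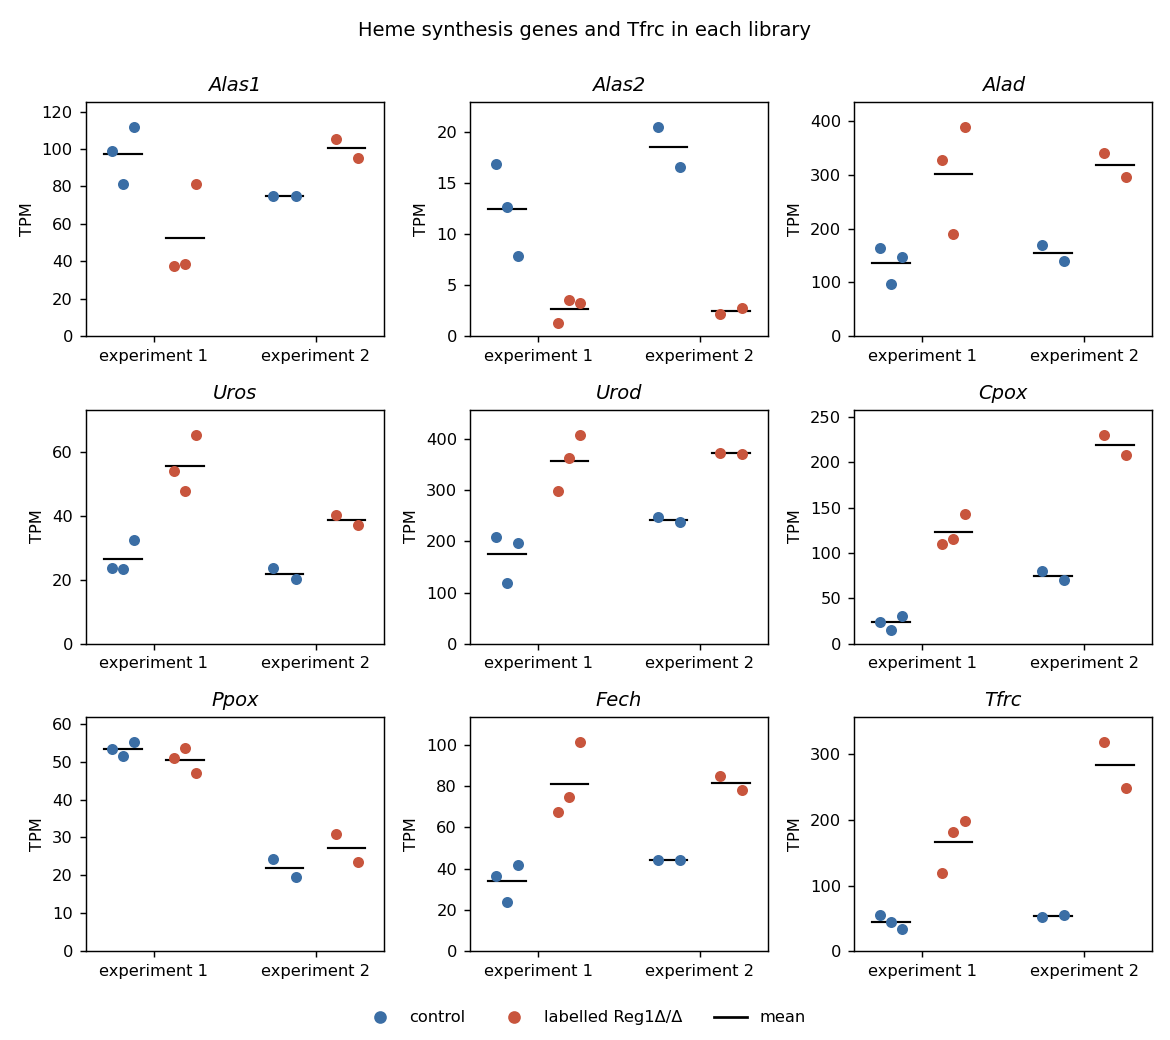
Level of each gene in TPM (linear axis from 0) in every library, by experiment, with controls in blue, libraries labelled Reg1Δ/Δ in red and the mean of each group as a line. The points of 7 genes do not overlap within an experiment in a direction shared by both experiments, Alas1 lies in opposite directions in the 2 experiments, and Ppox overlaps.

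Tfrc, which takes up transferrin-bound iron at the cell surface, was, with Cpox, one of the genes with the largest rise among the 9. In experiment 1 it was 55.3, 44.3 and 33.4 TPM in controls and 119, 181 and 198 TPM in the libraries labelled Reg1Δ/Δ. In experiment 2 it was 52.8 and 54.9 TPM in controls and 318 and 249 TPM in the libraries labelled Reg1Δ/Δ. Within each experiment every library labelled Reg1Δ/Δ was above its controls, and the mean was 3.75-fold higher in experiment 1 and 5.26-fold higher in experiment 2. On the log2(TPM + 1) scale the difference was 2.07 ± 0.20 (SE; 95% confidence interval 1.63 to 2.51; limma adjusted p = 2.09e-05, n = 5 per group). By mean TPM, Tfrc ranked 5 of 9 in the controls of each experiment, below Alas1 in 5 of 5 libraries, and 3 of 9 in the libraries labelled Reg1Δ/Δ of each experiment, above Alas1 in 5 of 5.

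Most of the Tfrc total in the libraries labelled Reg1Δ/Δ lay in the 4890-base protein-coding transcript that contains the 4 iron-responsive elements printed above. In experiment 1 this transcript held 41.5%, 47.2% and 73.0% of the gene's TPM in controls and 79.0%, 78.9% and 70.9% in the libraries labelled Reg1Δ/Δ, and in experiment 2 it held 96.4% or more in controls and 88.4% and 88.5% in the libraries labelled Reg1Δ/Δ. Its mean went from 22.8 TPM in controls to 126 TPM in experiment 1 and from 52.9 to 251 TPM in experiment 2, a log2 difference of 2.32 ± 0.16 (SE; limma adjusted p over all transcripts = 2.2e-05, n = 5 per group). A 166-base coding fragment, with 22.1% of the gene's TPM in experiment 1 averaged over the libraries, was not called (adjusted p = 0.0719 by limma). Across all 31937 transcripts tested, 6.40% were higher and 14.9% lower, and of the 38 tested transcripts of the 9 genes, 9 were higher and 4 lower.

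The 2 genes for the first step differed from each other. Alas2, the erythroid synthase, was 16.8, 12.6 and 7.80 TPM in the controls of experiment 1 and 1.26, 3.54 and 3.20 TPM in the libraries labelled Reg1Δ/Δ. In experiment 2 the controls were at 20.5 and 16.6 TPM and the libraries labelled Reg1Δ/Δ at 2.18 and 2.71 TPM. Within each experiment every control was above the libraries labelled Reg1Δ/Δ, by 4.65-fold in the mean of experiment 1 and 7.58-fold in that of experiment 2. The log2 difference was -2.13 ± 0.26 (SE; 95% confidence interval -2.70 to -1.55; limma adjusted p = 1.04e-04, n = 5 per group), and all 3 tested transcripts of the gene were lower. Alas2 was the lowest of the 9 genes in mean TPM in both groups.

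Alas1, the synthase found in most tissues, was 99.2, 81.31 and 112 TPM in the controls of experiment 1 against 37.6, 38.8 and 81.27 TPM. In experiment 2 it was 75.03 and 74.87 TPM in controls against 105 and 95.4 TPM. The groups therefore did not overlap within either experiment, by a narrow gap in experiment 1, but they lay in opposite directions: the mean was 1.86-fold higher in controls in experiment 1 and 1.34-fold higher in the libraries labelled Reg1Δ/Δ in experiment 2. Over both experiments the log2 difference was -0.41 ± 0.30 (SE; 95% confidence interval -1.09 to 0.26; limma adjusted p = 0.277). Fitted alone, experiment 1 gave -0.96 (limma adjusted p = 0.042) and experiment 2 gave 0.41 (limma adjusted p = 0.0754). The difference between the experiments was 1.38 ± 0.44 (SE) on the log2 scale, with a limma p of 0.0136 that did not pass correction over all genes (adjusted p = 0.264), where 57 genes or 0.443% of those tested did. None of the 9 genes passed that test, and Alas1 was the 1 with an unadjusted p under 0.05.

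Alas1 reads were assigned mostly to short or non-coding annotated transcripts, so its gene total is not a measure of full-length mRNA. A 460-base coding fragment held 36.5% of its TPM in experiment 1 and 66.1% in experiment 2, and a 1905-base processed transcript 30.6% and 25.2%. None of its 4 tested transcripts was called. As a share of Alas1 and Alas2 together, Alas2 had a median of 14.5% in controls (6.52% to 21.4%) and 3.24% in the libraries labelled Reg1Δ/Δ (2.03% to 8.38%). The ranges overlapped over the 10 libraries (two-sided exact permutation test, permuted within each experiment, p = 0.0333, adjusted p = 0.0389 over 14 library measures; the smallest p it allows is 0.0167).

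Among the middle enzymes, Alad, porphobilinogen synthase, was higher. It was 164, 97.7 and 148 TPM in the controls of experiment 1 against 327, 189 and 389 TPM, and 169 and 140 against 340 and 296 TPM in experiment 2. In both experiments all libraries labelled Reg1Δ/Δ were above their controls, with a log2 difference of 1.08 ± 0.21 (SE; 95% confidence interval 0.60 to 1.56; limma adjusted p = 0.00214, n = 5 per group). A single 1206-base coding transcript held 97.8% of its TPM in experiment 1 and 98.2% in experiment 2.

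Uros, uroporphyrinogen III synthase, closes the tetrapyrrole ring. Its controls were at 23.8, 23.3 and 32.4 TPM in experiment 1 and 23.6 and 20.3 TPM in experiment 2, and its libraries labelled Reg1Δ/Δ at 54.0, 47.8 and 65.5 and at 40.3 and 37.2 TPM. The 2 groups did not overlap within either experiment, and the log2 difference was 0.95 ± 0.14 (SE; 95% confidence interval 0.64 to 1.25; limma adjusted p = 3.1e-04, n = 5 per group). Its TPM was spread over 9 transcripts, of which 7 were tested and 2 were higher.

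Urod, uroporphyrinogen decarboxylase, had the highest mean TPM of the 9 genes in both groups. The controls of experiment 1 were at 209, 118 and 196 TPM and those of experiment 2 at 247 and 237 TPM. The libraries labelled Reg1Δ/Δ were at 299, 364 and 409 TPM and at 373 and 371 TPM. These did not overlap with the controls of their experiment, and the log2 difference was 0.88 ± 0.18 (SE; 95% confidence interval 0.48 to 1.29; limma adjusted p = 0.00245, n = 5 per group). Much of the Urod total came from transcripts annotated with a retained intron. Its 1489-base coding transcript held only 15.6% of it in experiment 1 and 36.4% in experiment 2. That transcript was itself higher, from a mean of 30.5 to 52.5 TPM in experiment 1 and from 85.2 to 138 TPM in experiment 2 (limma adjusted p over all transcripts = 0.0163).

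Cpox, coproporphyrinogen oxidase, works in the space between the mitochondrial membranes. It was 24.4, 15.5 and 31.0 TPM in the controls of experiment 1 against 110, 115 and 143 TPM, and 79.8 and 70.3 against 231 and 207 TPM in experiment 2. Every library labelled Reg1Δ/Δ was above the controls of its experiment, and the mean was 5.19-fold higher in experiment 1 and 2.92-fold higher in experiment 2. The log2 difference was 2.04 ± 0.22 (SE; 95% confidence interval 1.54 to 2.53; limma adjusted p = 4.85e-05, n = 5 per group). Cpox had 1 transcript in the files, so no split between forms affects it. It was below Alas1 in 4 of 5 controls and above it in 5 of 5 libraries labelled Reg1Δ/Δ.

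Ppox, protoporphyrinogen oxidase, makes the immediate precursor of heme and was not called as a gene. The controls were at 53.4, 51.4 and 55.1 TPM in experiment 1 and 24.3 and 19.5 TPM in experiment 2, and the libraries labelled Reg1Δ/Δ at 50.9, 53.7 and 46.9 and at 31.0 and 23.6 TPM. The groups overlapped in both experiments, and the interval of the log2 difference ran from -0.21 to 0.35 around 0.07 (limma adjusted p = 0.65, n = 5 per group). Its forms did not move together. The 1821-base coding transcript was higher, from a mean of 11.6 to 18.9 TPM in experiment 1 and from 17.2 to 25.4 TPM in experiment 2 (log2 difference 0.62 ± 0.16, SE; limma adjusted p over all transcripts = 0.0213). A 3042-base transcript with a retained intron was lower, from 5.24 to 2.55 TPM and from 0.996 to 0.0507 TPM (limma adjusted p over all transcripts = 0.00321). With protein-coding transcripts alone, the gene was higher by 0.69 on the log2 scale (limma adjusted p = 9.26e-04), and with median-of-ratios scaling by 0.42 (limma adjusted p = 0.0119).

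Fech, ferrochelatase, inserts iron into protoporphyrin in the last step. Controls were at 36.5, 23.6 and 41.9 TPM in experiment 1 and at 44.13 and 44.12 TPM in experiment 2. The libraries labelled Reg1Δ/Δ were at 67.5, 74.6 and 101 TPM and at 84.9 and 77.9 TPM, above the controls of the same experiment. The log2 difference was 1.10 ± 0.18 (SE; 95% confidence interval 0.69 to 1.497; limma adjusted p = 6.78e-04, n = 5 per group), carried by the 1 transcript of the gene in the files.

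**Figure D2:**
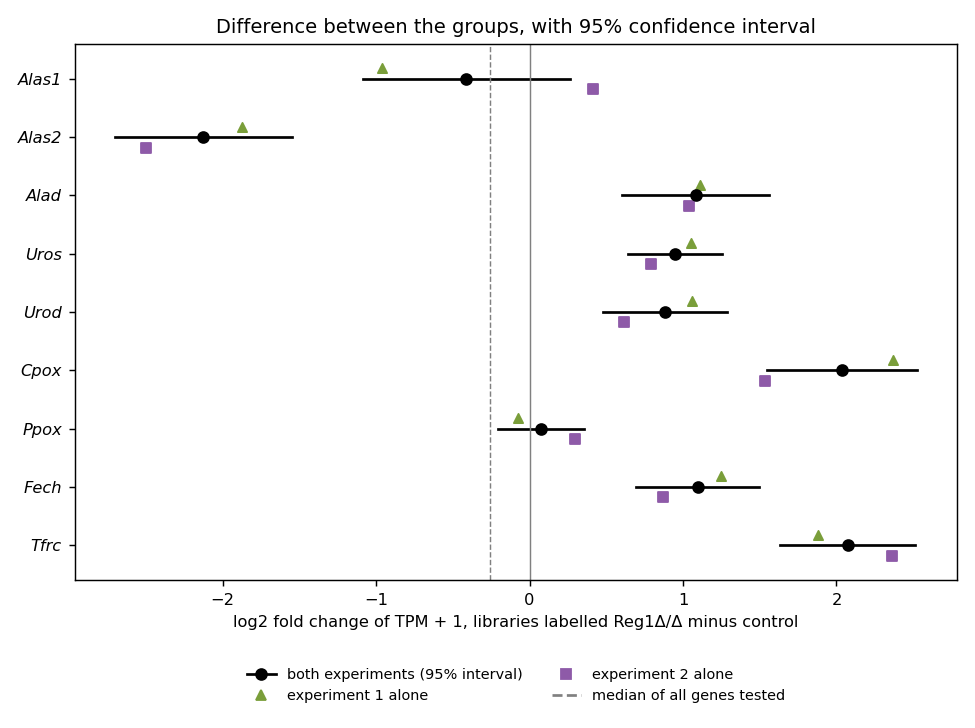
Log2 fold change of TPM + 1 between libraries labelled Reg1Δ/Δ and controls for each gene, over both experiments with its 95% confidence interval (black), in experiment 1 alone (triangles) and in experiment 2 alone (squares), with the median of all genes tested dashed. The intervals of Alad, Uros, Urod, Cpox, Fech and Tfrc lie above 0, that of Alas2 lies below 0, and those of Alas1 and Ppox include 0.

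**Figure D3:**
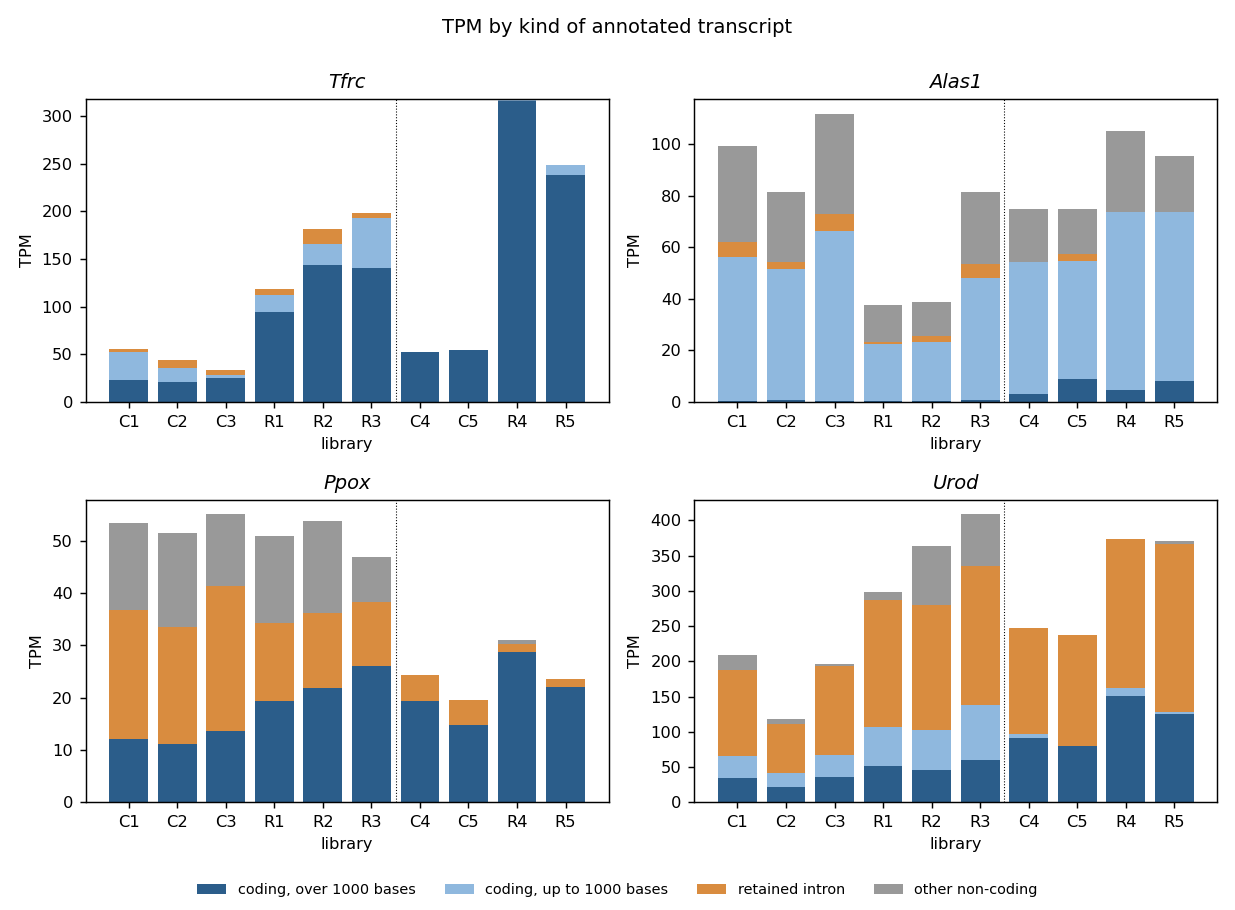
TPM of Tfrc, Alas1, Ppox and Urod in each library (C1 to C5 control, R1 to R5 labelled Reg1Δ/Δ; experiment 2 right of the dotted line), stacked by kind of annotated transcript. Long coding transcripts made up most of Tfrc in every library but controls 1 and 2, and little of Alas1.

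By mean TPM, a per-length scale, Urod and Alad stood first and Alas2 last in both groups and both experiments, and the order between them is given for each experiment. In the controls of experiment 1 it ran Alas1 (97.4), Ppox (53.3), Tfrc (44.3), Fech (34.0), Uros (26.5) and Cpox (23.6), where Ppox was above Tfrc, Tfrc above Fech and Uros above Cpox in 2 of 3 libraries each. In the controls of experiment 2 it ran Cpox (75.06), Alas1 (74.95), Tfrc (53.9), Fech (44.1), Uros (21.97) and Ppox (21.94), where Cpox was above Alas1 and Uros above Ppox in 1 of 2 libraries. In the libraries labelled Reg1Δ/Δ, Tfrc and Cpox followed Alad in both experiments, in every library. After them came Fech (81.1), Uros (55.8), Alas1 (52.5) and Ppox (50.5) in experiment 1, where Uros was above Alas1 in 2 of 3 libraries and Alas1 above Ppox in 1 of 3, and Alas1 (100.3), Fech (81.4), Uros (38.7) and Ppox (27.3) in experiment 2, in both libraries. Over the 10 libraries, centered within experiments, the enzymes that rose tracked each other closely, as a description of libraries that share the group difference. Pearson's r of log2 values was 0.98 for Cpox with Fech, for Urod with Fech and for Uros with Cpox. It was -0.91 for Alas2 with Uros, and 0.15 for Ppox with Cpox.

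The genes most like Tfrc across the 10 libraries, by the same r among 7308 genes, were Nars (0.987), Ydjc (0.986) and Rars (0.986), where Nars and Rars encode aminoacyl-tRNA synthetases. For Alas2 they were Arl8a (0.985), the alpha-globin gene Hba-a2 (0.983) and Rab12 (0.9748), and for Alas1 they were Washc5 (0.959), Phrf1 (0.956) and Actr5 (0.947). These values share the group difference and the same libraries and are given without a test.

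Of 17 erythroid markers, 10 were higher, 5 were lower and 2 were not called, against 15.0% higher and 37.9% lower over all genes tested. The 4 globin genes were all lower: their summed level was 4197, 2801 and 1566 TPM in the controls of experiment 1 against 370, 463 and 472 TPM, and 6140 and 4644 against 374 and 763 TPM in experiment 2. Slc4a1, the band 3 anion exchanger of red cells, was lower as well, at 5.62 to 38.0 against 0.941 to 5.04 TPM. Without the globins, the summed markers were at 1429 to 4662 TPM in controls and 10025 to 11808 TPM in the libraries labelled Reg1Δ/Δ, led by Car1, a red cell carbonic anhydrase. Rhag, a red cell membrane protein, was 10.7 to 39.7 TPM in controls and 144 to 245 TPM in the libraries labelled Reg1Δ/Δ. Alas2 was lower alongside the globins, and per 1000 TPM of globin its median was 4.003 TPM in controls and 5.81 TPM in the libraries labelled Reg1Δ/Δ. The ranges of that ratio, 3.33 to 4.98 and 3.40 to 7.66, overlapped (two-sided exact permutation test, permuted within each experiment, p = 0.183, adjusted p = 0.197). In bulk libraries, fewer cells of a type and less RNA per cell cannot be told apart.

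Most markers of other blood cells were lower in the libraries labelled Reg1Δ/Δ, with exceptions among the granulocyte and megakaryocyte genes. Summed granulocyte markers were 3250 to 13748 TPM against 345 to 1069 TPM, macrophage markers 210 to 896 against 19.9 to 41.7 TPM, and B-lineage markers 145 to 1205 against 2.34 to 20.3 TPM. Of the markers that could be tested, 7 of 10 granulocyte, 7 of 7 macrophage, 7 of 7 B-lineage and 5 of 6 megakaryocyte genes were lower, against 37.9% of all genes tested, and the megakaryocyte gene Gp1ba was higher. C1qb and Spic of the macrophage list passed the filter only through the controls, being under 1 TPM in every library labelled Reg1Δ/Δ. The granulocyte genes not called were Mpo, Elane and Ctsg, which encode proteins of the primary granules. In experiment 2 their mean levels were 319, 158 and 90.1 TPM in controls against 324, 175 and 101 TPM, so the lower granulocyte sum in experiment 2 lies in other genes, such as S100a8 and S100a9. In experiment 1, Mpo was 1049 to 1445 TPM in controls against 138, 43.8 and 631 TPM. Of 10 proliferation markers, 5 were higher and 5 not called, against 15.0% higher over all genes tested. The part of these markers in the differences of the heme genes was not tested. Control replicate 2 was the lowest control in erythroid genes, with Car1 at 505 TPM against 1751 to 2709 TPM in the other controls, and it was also the lowest control of experiment 1 for Alad, Uros, Urod, Cpox, Ppox and Fech. Without it, the same counts of 6 higher and 1 lower were obtained.

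**Figure D4:**
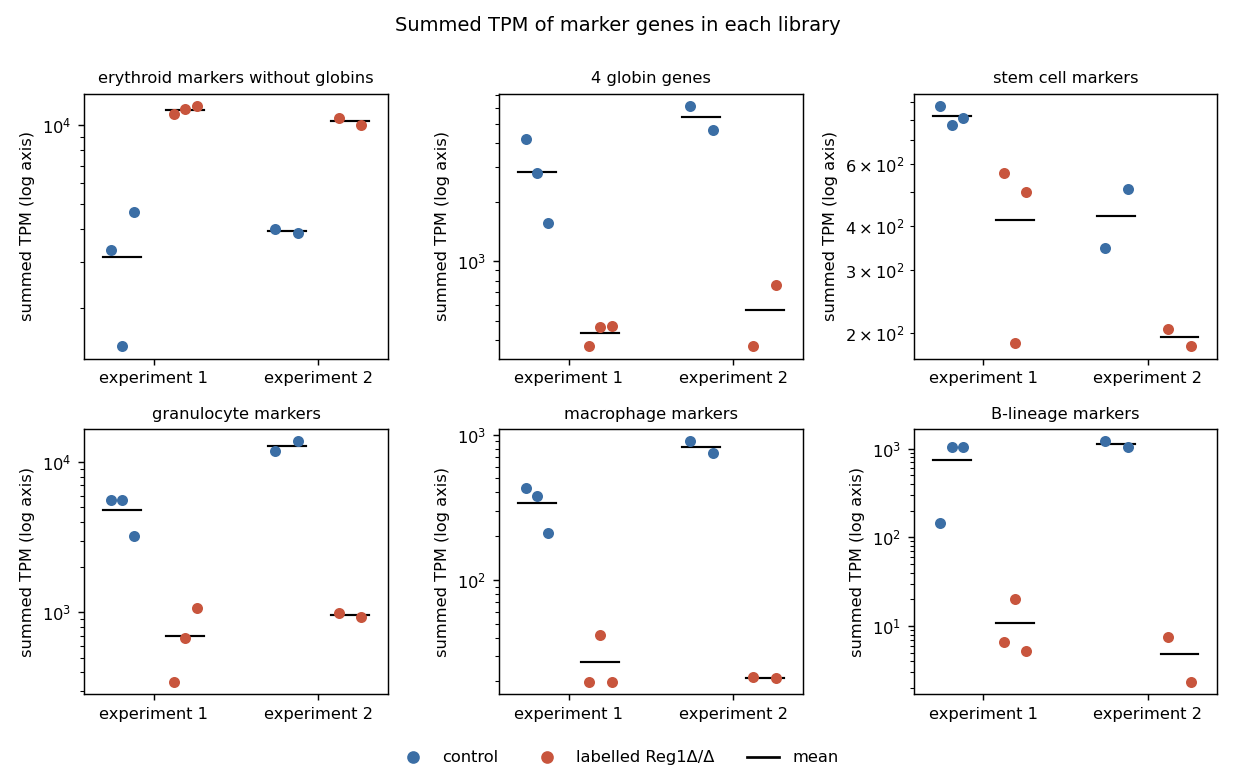
Summed TPM (log axis) of marker genes in every library by experiment, with controls in blue, libraries labelled Reg1Δ/Δ in red and group means as lines. Erythroid markers other than globins were higher, and the globins and the stem cell, granulocyte, macrophage and B-lineage markers lower, in the libraries labelled Reg1Δ/Δ within each experiment.

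Of 16 other genes of the heme pathway, 7 were higher, 5 lower and 4 not called, with a median log2 fold change of 0.23. Over all genes tested, 15.0% were higher and 37.9% lower, so the share called lower in this list was near that of all genes. The higher genes included a mitochondrial carrier and membrane proteins of heme synthesis. Slc25a38, the mitochondrial glycine carrier, was 20.0 to 40.8 TPM in controls and 59.2 to 88.4 TPM in the libraries labelled Reg1Δ/Δ, and Tmem14c, needed for porphyrin import into the mitochondrion, 95.8 to 280 against 286 to 576 TPM. Abcb10, a mitochondrial transporter, was 5.89 to 15.9 against 15.8 to 37.1 TPM (limma adjusted p = 0.00248). Abcb6, another transporter of the same family, was 6.48 to 13.9 against 21.5 to 32.4 TPM (limma adjusted p = 5.72e-04). Blvrb, a biliverdin reductase, was 80.9 to 267 against 518 to 773 TPM.

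The 2 heme oxygenases, which break heme down, were both lower. Hmox1 was 2.14 to 14.2 TPM in controls and 0.11 to 0.58 TPM in the libraries labelled Reg1Δ/Δ, so it passed the filter on low values only through the controls, and Hmox2 81.5 to 174 against 38.6 to 64.8 TPM. Slc25a37, mitoferrin-1, which brings iron into the mitochondrion, was lower too, at 3.50 to 4.82 TPM in controls against 1.54 to 3.37 TPM in experiment 1 and 16.9 to 17.2 against 8.13 to 8.76 TPM in experiment 2 (limma adjusted p = 0.00477), but its log2 difference was -0.01 with quantile normalization, and the call was also lost in experiment 1 alone, with coding transcripts alone and without the covariate (limma adjusted p = 0.0785, 0.0586 and 0.385). Under that scaling, and under median-of-ratios scaling, 3 genes of this list were lower.

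Among 20 genes of iron transport and storage, 14 could be tested, of which 8 were higher, 4 lower and 2 not called (median log2 fold change 0.33), against 15.0% higher and 37.9% lower over all genes tested. Exoc6, a part of the exocyst that serves the recycling of Tfrc, was 35.0 to 47.7 TPM in controls against 38.1 to 61.5 TPM and was not called (limma adjusted p = 0.0569). The metalloreductases Steap1, Steap2 and Steap4 were not tested, and all were under 1 TPM in every library. Steap3, which reduces the iron released from transferrin, was 5.09 to 12.1 TPM in controls and 23.7 to 34.3 TPM in the libraries labelled Reg1Δ/Δ of experiment 1, and 42.9 to 57.9 against 103 to 121 TPM in experiment 2. Slc11a2, which carries that iron into the cytosol, was 21.8 to 44.4 against 78.4 to 101 TPM. Tfr2, the second transferrin receptor, was 53.5 to 117 against 82.7 to 126 TPM (limma adjusted p = 0.0133), a smaller difference whose ranges overlapped and which missed the threshold in each experiment alone (limma adjusted p = 0.131 and 0.0638).

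Export and storage genes were mixed. Slc40a1, the iron exporter ferroportin, was 30.3 to 74.2 TPM in controls and 70.1 to 178 TPM in the libraries labelled Reg1Δ/Δ (limma adjusted p = 0.00139). The ferritin heavy chain Fth1 was higher by 0.56 on the log2 scale (limma adjusted p = 0.00203), while the light chain Ftl1, at 1337 to 1761 against 1407 to 1806 TPM, was not called at 0.05 (95% confidence interval -0.18 to 0.28; limma adjusted p = 0.711), but Ftl1 was at -0.032 with quantile normalization and was called higher with median-of-ratios scaling, at 0.40 (limma adjusted p = 0.00443). Ncoa4, which delivers ferritin for breakdown, was lower, at 361 to 422 against 120 to 126 TPM in experiment 1 and 56.2 to 65.9 against 24.0 to 30.1 TPM in experiment 2. Slc39a14, a metal importer, was 3.75 to 6.28 against 1.51 to 3.04 TPM (limma adjusted p = 0.00119), and was at -0.04 on the log2 scale with quantile normalization. Slc40a1 missed the threshold in experiment 2 alone (limma adjusted p = 0.234).

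Of 14 genes of iron-sulfur cluster assembly, 9 were higher, none lower and 5 not called by limma, against 15.0% higher and 37.9% lower over all genes tested, and none had an unadjusted p under 0.05 in the lower direction. Glrx5, a mitochondrial glutaredoxin, was 94.3 to 167 TPM in controls and 237 to 408 TPM in the libraries labelled Reg1Δ/Δ, and Lyrm4, a partner of the cysteine desulfurase, 7.04 to 13.9 against 16.0 to 30.4 TPM. The median log2 fold change of this list was 0.53.

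Of 18 regulators of iron and heme, 17 were tested, and 6 were higher, 6 lower and 5 not called (median log2 fold change -0.04), where the share called lower was near the 37.9% of all genes tested. The blood transcription factors went in both directions. Gata1, Klf1 and Tal1 were higher, Gata2 and Nfe2 lower, and Zfpm1 was not called. For Tal1 (limma adjusted p = 0.0265) the groups overlapped in experiment 1, at 5.74 to 7.54 TPM in controls against 6.54 to 10.1 TPM. Gata1 was 28.0 to 86.8 TPM in controls and 157 to 191 TPM in the libraries labelled Reg1Δ/Δ, and Klf1 27.8 to 132 against 242 to 322 TPM. Aco1, iron regulatory protein 1, was higher by 0.66 on the log2 scale (limma adjusted p = 0.012), but not in either experiment alone (limma adjusted p = 0.117 and 0.069). Ireb2, iron regulatory protein 2, was 6.53 to 17.2 against 4.84 to 16.8 TPM and was not called (limma adjusted p = 0.598), and its sign changed under both other scalings. Fbxl5, which marks Ireb2 protein for breakdown, was 20.5 to 82.9 against 9.06 to 46.2 TPM, and Bach1, a repressor that senses heme, 3.45 to 13.0 against 0.823 to 6.69 TPM. Both were lower (limma adjusted p = 0.0019 and 0.00133), but both missed the threshold in experiment 2 alone (limma adjusted p = 0.0915 and 0.136), and Bach1 also with quantile normalization, at -0.22 on the log2 scale (limma adjusted p = 0.347). Of the genes that respond to oxygen, Egln3 was lower, at 3.18 to 7.57 against 0.185 to 2.43 TPM, and so was Hif1a, at 13.1 to 54.1 against 7.28 to 9.04 TPM, while Egln1 and Egln2 were not called. Eif2ak1, the heme-regulated kinase that restrains translation when heme is low, was 16.3 to 29.9 against 23.4 to 34.5 TPM and was not called (limma adjusted p = 0.129), but passed under both other scalings.

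Fewer of these calls were made in the smaller experiment taken alone. Counted here were the 25 genes outside the 9 that came from the preset set or the per-list rule given below and were called over both experiments. Of these, 12 were called in experiment 2 alone and 21 in experiment 1 alone. Genes named after their values were seen, such as Tal1 and Gata2, were not counted. Besides Tfr2, Slc40a1, Aco1, Fbxl5, Bach1 and Zc3h12a, the calls of Steap3, Fth1, Ncoa4, Slc39a14, Glrx5, Lyrm4 and Hif1a were missed in experiment 2 alone (limma adjusted p = 0.0665, 0.0635, 0.05003, 0.101, 0.0733, 0.0649 and 0.0965). Without the covariate, 9 of the 25 calls were lost, among them Steap3, Fth1, Fbxl5 and Ncoa4.

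**Figure D5:**
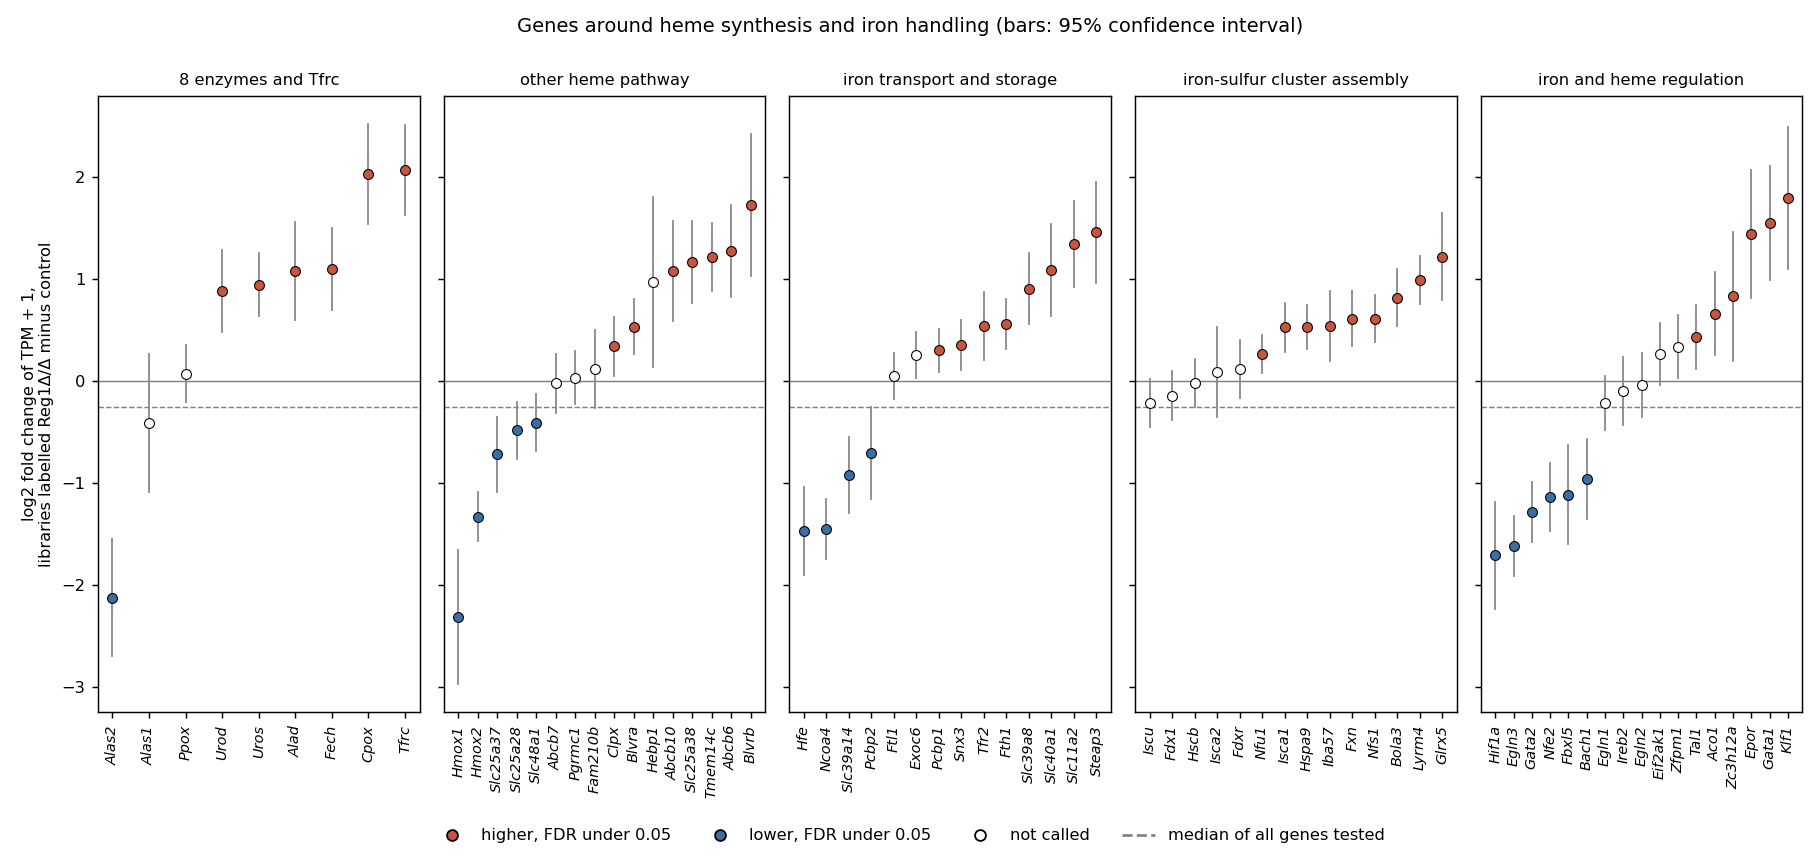
Log2 fold change of TPM + 1, libraries labelled Reg1Δ/Δ minus controls, with 95% confidence intervals, for the 9 genes and for the tested genes of 4 related lists; filled points passed an adjusted p of 0.05, open points did not, and the dashed line is the median of all genes tested. The iron-sulfur list has no gene called lower, and the other lists hold genes called in both directions.

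The annotation places the genes on GRCm38 as follows. Tfrc (chr16:32608920-32632794) and Cpox (chr16:58670292-58717636) lie on the plus strand of the same chromosome, and Alad (chr4:62509169-62519918) and Urod (chr4:116989965-116994413) on the minus strand of another. Alas1 lies at chr9:106233455-106248654, Alas2 at chrX:150547375-150570638, Uros at chr7:133686243-133710072, Ppox at chr1:171275990-171281186 and Fech at chr18:64452914-64490251. The exons of 4 of these genes overlap exons on the opposite strand: Alas2 shares 311 bases with Apex2, Ppox 791 bases with B4galt3, Cpox 204 bases with Gpr15 and Alas1 465 bases with an antisense gene. The library kit does not mark strand, so reads from the shared bases cannot be told apart. Gpr15 was under 1.41 TPM in every library, Apex2 was 6.42 to 10.2 TPM in controls and 5.73 to 11.003 TPM in the libraries labelled Reg1Δ/Δ, and B4galt3 23.5 to 32.6 against 19.8 to 29.3 TPM.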

How the data were processed

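RNA of sorted CD34- HSCs was amplified with a SMART-Seq v4 Ultra Low Input kit and a Nextera XT library per the labels (the study's methods name version 3 of that kit). Reads were aligned with STAR to GRCm38 with GENCODE M17 and quantified with Salmon 0.9.1, and the authors deposited log2(TPM + 1) per transcript, which hides read depth. Here TPM was recovered and the 95912 transcripts were summed per gene. The 12874 genes that reached 1 TPM in 5 or more libraries were compared by limma 3.58.1 (R 4.3.3) on log2(TPM + 1), a scale that understates changes of low genes, with experiment as covariate and Benjamini-Hochberg adjustment. Each p measures the spread between individual mice. Single library measures were compared by an exact permutation test over the 120 assignments within experiments. The scripts were tested on simulated data. The genes, lists and rules were chosen with earlier results of these data known. Named beyond the 9 genes were a preset set and, per list, the 2 largest called rises and falls that did not overlap and reached a mean of 5 TPM in the higher group; single marker genes, Exoc6, Steap1, Steap2, Steap4 and the regulators Tal1, Gata2, Nfe2, Zfpm1, Egln1 and Egln2 were named after their values were seen. Alternatives were the filter, pseudocount, covariate, single experiments, replicate block, scaling, coding transcripts, a trended variance and leaving out each library. A gene of the heme pathway list is not reported here.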

Additional observations from a re-analysis of the deposited data

Results flagged for a closer look

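In 37 genes, the 9 described and 28 related ones, each group of 5 libraries was searched for a library far from the others, which gave 74 groups, of which chance alone would flag about 3.7. Gata1 was 27.98 TPM in control replicate 2, against 64.4 to 86.8 TPM in the other controls. Zc3h12a was 6.07 TPM in control replicate 5, against 1.28 to 1.83 TPM in the other controls. None of the 9 heme and iron uptake genes was flagged, and no difference between the 2 experiments passed correction for these genes.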

How the results depend on the processing

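Under every alternative, Alad, Uros, Urod, Cpox, Fech and Tfrc remained higher and Alas2 lower, so that 6 genes were higher and 1 lower, except that 7 were higher with median-of-ratios scaling and with coding transcripts alone (Ppox), and 2 were lower in experiment 1 alone (Alas1). Alas1 was at 0.41 on the log2 scale in experiment 2 alone. Ppox was at -0.078 in experiment 1 alone and ranged from -0.021 to 0.12 when each library was left out. Ftl1 was at -0.032 with quantile normalization, at 0.40 with median-of-ratios scaling (limma adjusted p = 0.00443) and between -0.00059 and 0.090 with a library left out. Ireb2 was at 0.22 in experiment 2 alone, 0.54 with quantile normalization (limma adjusted p = 0.00307) and 0.21 with median-of-ratios scaling. Over all genes, 1933 were higher and 4880 lower; without the covariate 716 and 3052, in experiment 2 alone 452 and 1581, with quantile normalization 3861 and 2636, and 3973 were higher with median-of-ratios scaling. Of the other heme pathway genes, 5 were lower, and 3 with quantile normalization and 3 with median-of-ratios scaling. No iron-sulfur gene was lower, and 0 to 1 were with a library left out (1 without control replicate 5). The cause of these shifts was not tested. Zc3h12a lost its call in 9 of 21 alternatives, among them leaving out control replicate 2 or Reg1Δ/Δ replicate 1, 4 or 5 (limma adjusted p 0.0121 to 0.0768 over the libraries left out). For the related lists, leaving out each library was added after the data were seen, as were 4 alternatives of the test between experiments, under which none of the 9 genes passed. Same-numbered libraries did not deviate together (r = 0.03, 0.18 and 0.07 in experiment 1 and -0.05 in experiment 2), and a replicate block left 6 genes higher and 1 lower, with 1703 higher and 4545 lower over all genes. Read depth is unknown, so whether a gene near 0 was missed cannot be judged.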
